A study of Danio rerio with 4 samples.

Results

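The interferon response genes described here are transcription factors of the IRF and STAT families together with a few of the antiviral genes they switch on. Those taken were irf1b, irf7, irf8, irf9, stat2, isg15, isg20 and mxa, and a gene was taken when its symbol equalled a listed name without regard to case. By that rule 8 of 10 listed genes were taken from the 31951 genes of the table. irf7 and irf8 stand in capitals in the symbol table (IRF7 and IRF8) and are written in lower case below.

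The libraries came from endothelial cells sorted from zebrafish embryos grown at standard temperature. The kdrl:cxcr1 fish carried the transgenes kdrl:mcherry and kdrl:cxcr1, in which the promoter of kdrl, a VEGF receptor gene of endothelium, drives a red fluorescent protein and the chemokine receptor gene cxcr1. The wild-type fish carried kdrl:mcherry without kdrl:cxcr1. Each of 2 independent clutches gave 1 library per genotype, so there were 2 kdrl:cxcr1 and 2 wild-type libraries, and the age of the embryos is not given in the sources used here. Levels are FPKM, fragments scaled to transcript length and library size, so transcript length is allowed for where genes are compared. Other differences between genes, such as in amplification or mapping, were not tested.

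Interferons bind receptors on the cell surface, which activate Janus kinases, and these phosphorylate STAT proteins. STAT proteins join IRF9 in a complex that enters the nucleus and switches on antiviral genes such as isg15 and the Mx genes. IRF7 drives the production of interferon itself, IRF1 acts downstream of interferon gamma, and Irf8 in zebrafish is needed for macrophages to form. Endothelial cells respond to interferon, and interferon signalling also takes part in the formation of blood stem cells in zebrafish embryos.

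Several facts of the libraries touch all values below. Summed FPKM ran from 986557 to 1280969, and the share of genes listed at 0 was 31.9% in both clutch 1 libraries and 42% to 43.5% in clutch 2. Depth is unknown from FPKM values. A value of 0 is given only as listed at 0, since a failed estimate can also be written as 0. All 19 rows of the endothelial marker list were above 0 in every library. The row cxcr1 read 12.8 and 0 FPKM in kdrl:cxcr1 clutches 1 and 2, against 8.14 and 0 FPKM in wild-type clutches 1 and 2. A row CXCR1 read 0 and 8.21 FPKM against 3.89 and 0 FPKM. Neither row separated the genotypes, so each direction given here goes by the labels. Markers of other cells were present, such as the neutrophil lysozyme gene lyz at 317 and 703 FPKM in the kdrl:cxcr1 libraries, against 310 and 421 FPKM in the wild-type libraries. In sorted cells sequenced in bulk, fewer cells of a type and less RNA per cell cannot be told apart.

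The factors irf1b, irf9, irf7 and stat2 stood above the median tested gene, and irf8 and the antiviral members stood below it. irf1b was the highest, at a mean of 23.9 FPKM over the 4 libraries, above 81% of the 17723 genes tested. Next came irf9 (13.9 FPKM), irf7 (9.37) and stat2 (7.86). The median tested gene had a mean of 7.54 FPKM. irf8 and isg20 had means of 3.51 and 3.49 FPKM and lay above 27.9% and 27.7% of tested genes. Lowest were isg15 (2.31 FPKM) and mxa (0.0657). The ranges of every pair of neighbours in this order overlapped, so the order of neighbours is within the spread of the libraries.

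**Figure D1:**
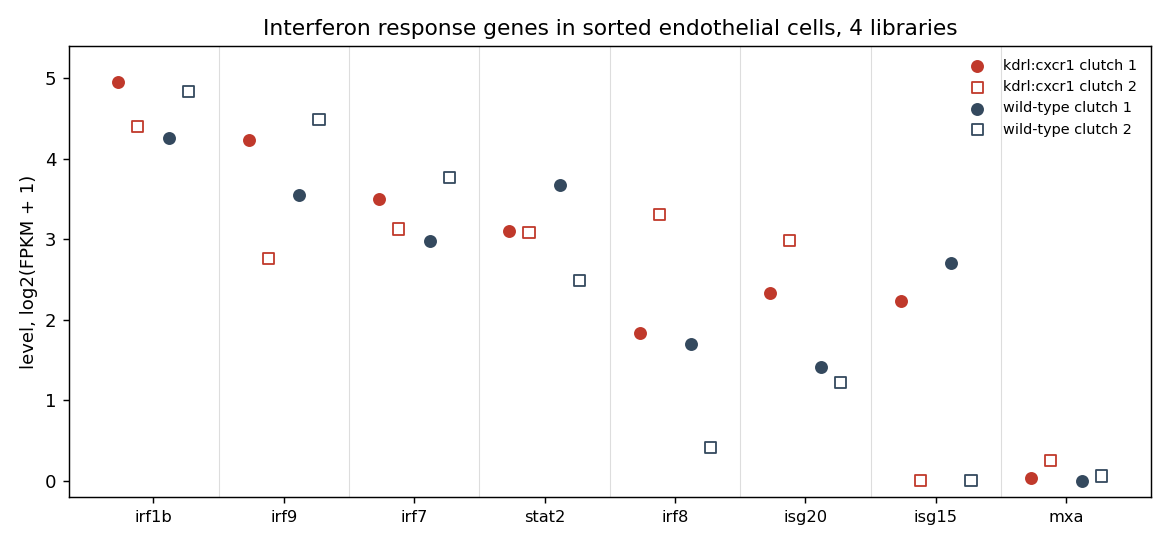
Level of each gene as log2(FPKM + 1) in the 4 libraries, with genes in order of mean level, kdrl:cxcr1 in red left of wild-type in dark blue, filled circles for clutch 1 and open squares for clutch 2. irf1b lies highest with a mean of 23.9 FPKM, mxa lies lowest with a mean of 0.0657 FPKM, and isg15 is listed at 0 in both clutch 2 libraries.

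Whether the endothelial cxcr1 transgene went with a change in these genes was asked first. None of them passed. A gene was tested when it reached 1 FPKM in at least 2 libraries, which held for 7 of the 8 members, all but mxa. limma's moderated test on log2(FPKM + 1) with Benjamini-Hochberg adjustment over all 17723 tested genes called 0 of the 7 at a threshold of 0.05, and 0 had an unadjusted p under 0.05. In the whole table it called 2 genes, or 0.0113%, and 0 with the clutch as a block, which also left 0 members. Without adjustment, 1206 genes or 6.8% had a limma p under 0.05. The median log2 fold change was 0.01 over the 7 members and 0.16 over all tested genes. The median of all genes moved to -0.03 under median-of-ratios scaling, so a fold change near 0.16 stands for no difference from the typical gene. An exact permutation of 2 libraries against 2 cannot give a two-sided p below 0.333.

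irf1b, irf7 and irf9 shared a pattern, with the kdrl:cxcr1 library above wild-type in clutch 1 and below it in clutch 2. irf9, the DNA-binding partner of the STAT proteins, read 17.8 and 5.77 FPKM in kdrl:cxcr1 clutches 1 and 2, against 10.7 and 21.4 FPKM in wild-type clutches 1 and 2. Its lowest and highest values were thus both in clutch 2, and the genotypes overlapped. The log2 ratio was 0.68 in clutch 1 and -1.72 in clutch 2, and the fold change over both was -0.52 (SE 0.66, limma adjusted p = 0.875), or 0.22 without kdrl:cxcr1 clutch 2.

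irf1b, an interferon-inducible activator, read 29.9 and 20.1 FPKM in the kdrl:cxcr1 libraries, against 18.1 and 27.6 FPKM in the wild-type libraries. The values interleave, with the highest in kdrl:cxcr1 clutch 1 and the lowest in wild-type clutch 1. Its log2 ratio was 0.69 in clutch 1 and -0.44 in clutch 2, for a fold change of 0.13 (SE 0.43, limma adjusted p = 0.968). That sign turned to -0.15 without kdrl:cxcr1 clutch 1, to -0.17 without wild-type clutch 1 and to -0.1 under median-of-ratios scaling.

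irf7 read 10.3 and 7.73 FPKM in the kdrl:cxcr1 libraries, against 6.85 and 12.6 FPKM in the wild-type libraries, with the 2 wild-type libraries at the extremes. The log2 ratio was 0.52 in clutch 1 and -0.64 in clutch 2, and the fold change -0.06 (SE 0.52, limma adjusted p = 0.989). It was 0.12 without kdrl:cxcr1 clutch 2 and 0.34 without wild-type clutch 2. stat2, the STAT protein specific to type I and type III interferon signalling, went the other way. It read 7.57 and 7.48 FPKM in the kdrl:cxcr1 libraries, against 11.8 and 4.61 FPKM in the wild-type libraries, so the kdrl:cxcr1 libraries were nearly equal and lay between the wild-type ones. Its log2 ratio was -0.58 in clutch 1 and 0.60 in clutch 2, with a fold change of 0.01 (SE 0.59, limma adjusted p = 0.998), or -0.58 without wild-type clutch 2 and -0.19 under median-of-ratios scaling. Of the 7 tested members, 4 thus had log2 ratios of opposite sign in the clutches, as did 40.0% of all tested genes. The 3 that were above 0 in clutch 1 and below 0 in clutch 2 stand beside 20.8% of all tested genes. With 1 library per genotype and clutch, the difference between clutches was not tested.

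**Figure D2:**
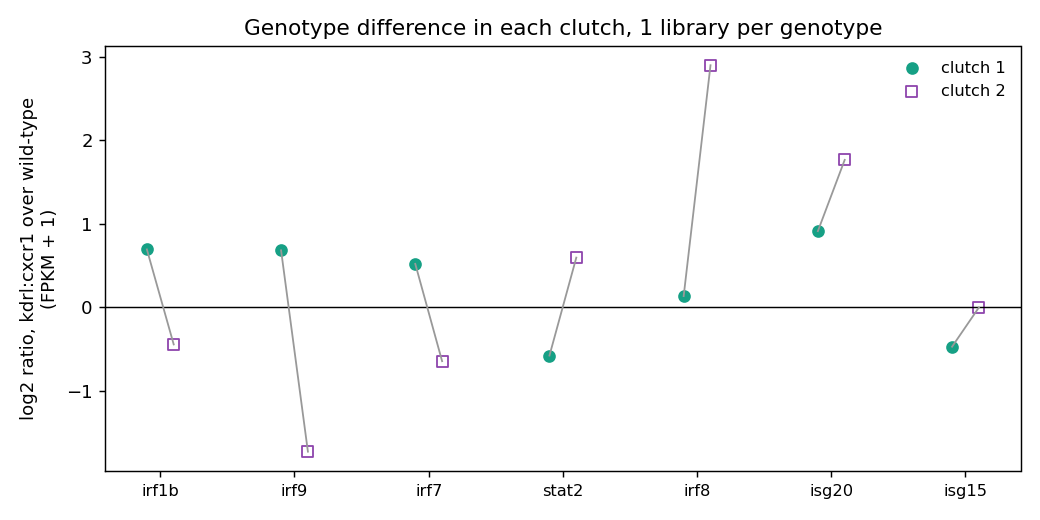
Log2 ratio of kdrl:cxcr1 over wild-type, from FPKM + 1, in clutch 1 (filled circles) and clutch 2 (open squares) for the 7 tested members, each point from 1 library per genotype. irf1b, irf7 and irf9 lie above 0 in clutch 1 and below 0 in clutch 2, while irf8 and isg20 lie above 0 in both, at 0.14 and 2.90 for irf8 and 0.91 and 1.77 for isg20.

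The genes whose genotypes did not overlap were irf8 and isg20, both higher in kdrl:cxcr1. These are 2 of 7 tested members. Over all tested genes 39.6% did not overlap between genotypes, and 26.0% were higher without overlap. No member was lower without overlap, as 13.6% of tested genes were. isg20, an antiviral exonuclease that degrades RNA, read 4.03 and 6.91 FPKM in the kdrl:cxcr1 libraries, against 1.67 and 1.33 FPKM in the wild-type libraries. Both kdrl:cxcr1 libraries lay above both wild-type libraries, with means of 5.47 ± 2.04 FPKM and 1.5 ± 0.243 FPKM (SD, n = 2 each). The log2 fold change was 1.34 (SE 0.62), which did not pass (limma adjusted p = 0.699), and it ranged from 1.01 to 1.67 with 1 library left out.

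irf8 read 2.56 and 8.90 FPKM in the kdrl:cxcr1 libraries, against 2.24 and 0.329 FPKM in the wild-type libraries. In clutch 1 the genotypes were close, with a log2 ratio of 0.14, and in clutch 2 they were apart, with a log2 ratio of 2.90. The fold change of 1.52 (SE 0.84, limma adjusted p = 0.708) was 0.78 without kdrl:cxcr1 clutch 2 and 0.87 without wild-type clutch 2. Because irf8 marks macrophages in zebrafish, macrophage markers are set beside it. Their 19 rows summed to 367 and 724 FPKM in kdrl:cxcr1 and to 344 and 401 FPKM in wild-type. The highest sum and the highest irf8 value were in the same library, kdrl:cxcr1 clutch 2. The lowest irf8 value was in wild-type clutch 2, where the macrophage sum of 401 FPKM was above both clutch 1 sums. In clutch 2, 13 of the 19 rows were above wild-type, and in clutch 1 the count was 10. cd68, a lysosomal gene of macrophages, read 23.1 and 69.4 FPKM in the kdrl:cxcr1 libraries, against 11 and 13.8 FPKM in the wild-type libraries. Complement genes were not uniform. c1qc stood at 0 in both libraries of kdrl:cxcr1 and read 1.84 and 10.4 FPKM in wild-type. In kdrl:cxcr1 against wild-type, c1qa read 0 and 12 FPKM against 2.15 and 0 FPKM. c1qb read 6.77 and 14.8 FPKM against 7.81 and 0 FPKM. In all, 5 of the 15 tested macrophage rows were higher without overlap and 2 were lower, near the 26.0% and 13.6% of all tested genes. Of the lower rows, c1qc passed the filter through wild-type alone, so its lack of overlap follows from being tested at all. The sum of the 9 neutrophil marker rows was also highest in kdrl:cxcr1 clutch 2, at 1830 FPKM, as were 32.5% of all tested genes. The endothelial, lymphocyte and epidermal sums were highest in wild-type clutch 2, and the erythroid sum in kdrl:cxcr1 clutch 1. The part of these markers in the irf8 values was not tested.

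Marker lists of other cells are set beside irf9 in the same way. The 15 epidermal marker rows summed to 941 and 616 FPKM in kdrl:cxcr1 and to 1036 and 1297 FPKM in wild-type. That sum was lowest in kdrl:cxcr1 clutch 2 and highest in wild-type clutch 2, as irf9 was. Among all tested genes, 24.7% were highest in wild-type clutch 2. In clutch 1 the epidermal sum was lower in kdrl:cxcr1 than in wild-type, while irf9 was higher. In kdrl:cxcr1 clutch 2 the rows krt92 and cldne were listed at 0. Most of the epidermal sum in that library came from krt8, which was highest there. krt8 read 386 and 503 FPKM in the kdrl:cxcr1 libraries, against 295 and 496 FPKM in the wild-type libraries. Of the 15 epidermal rows, 8 were lower in kdrl:cxcr1 without overlap and 0 higher (13.6% and 26.0% of all tested genes). The endothelial list summed to 1069 and 1380 FPKM in kdrl:cxcr1 and to 1025 and 1663 FPKM in wild-type, also highest in wild-type clutch 2 but second highest in kdrl:cxcr1 clutch 2, where irf9 was lowest. The marker sums were not scaled to the summed FPKM of all genes, which ranked the 4 libraries in the same order as the endothelial sum. The part of either list in the irf9 values was not tested.

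**Figure D3:**
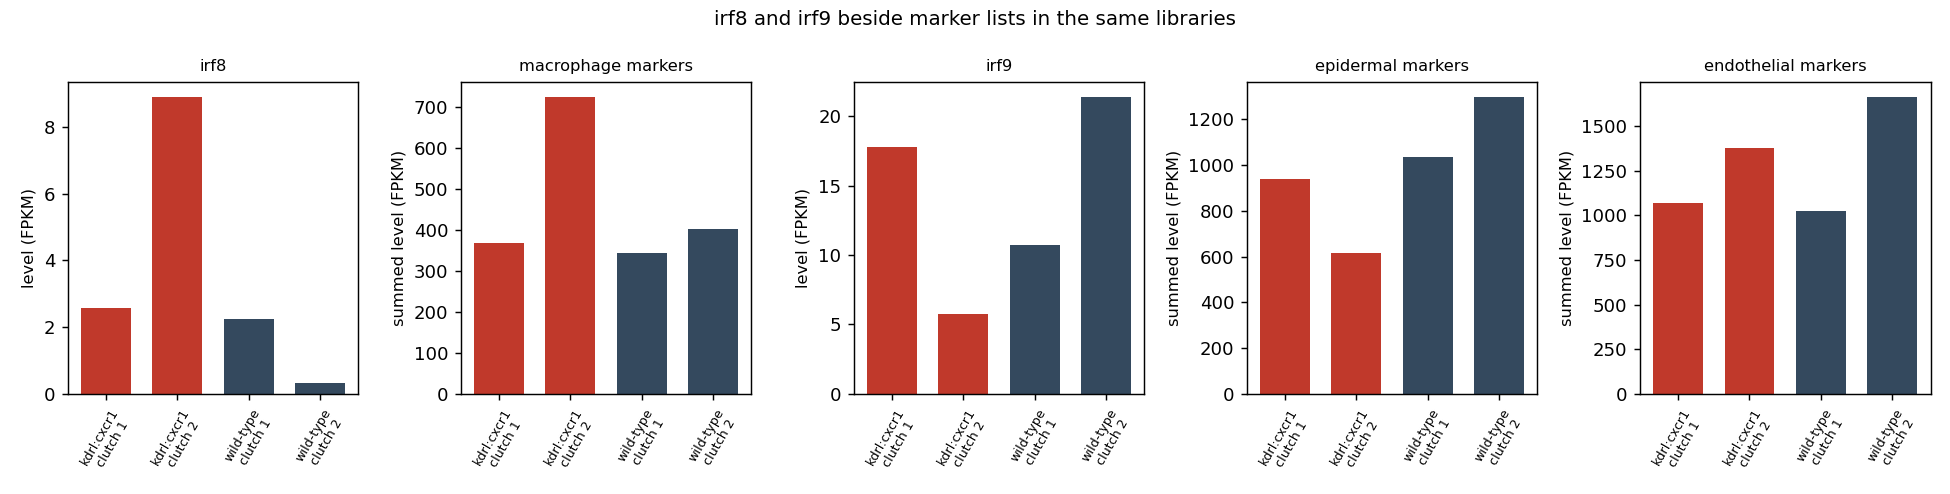
Level of irf8 and irf9 in FPKM, and summed FPKM of the macrophage, epidermal and endothelial marker lists, in the 4 libraries, with 1 bar per library, kdrl:cxcr1 in red and wild-type in dark blue. irf8 (8.90 FPKM) and the macrophage sum (724 FPKM) are highest in kdrl:cxcr1 clutch 2, where irf9 (5.77 FPKM) and the epidermal sum (616 FPKM) are lowest. Most of that epidermal sum is krt8 (503 FPKM). irf8 is lowest in wild-type clutch 2 (0.329 FPKM), where the macrophage sum (401 FPKM) is above both clutch 1 sums.

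Of the antiviral members, isg15 and mxa were near or at 0 in part of the libraries. isg15, a ubiquitin-like protein that is attached to other proteins during the response, read 3.71 and 0 FPKM in the kdrl:cxcr1 libraries, against 5.52 and 0 FPKM in the wild-type libraries. It was above 0 in both clutch 1 libraries and listed at 0 in both clutch 2 libraries. Between genotypes the fitted difference was -0.23 log2 units (SE 1.23, limma adjusted p = 0.98), with an SE of 0.58 when the clutch was a block. It was 0.88 without kdrl:cxcr1 clutch 2 and 1.12 without wild-type clutch 1. Leaving out 1 library unbalances the clutches, so those values carry the difference between clutches. In clutch 1 the log2 ratio of kdrl:cxcr1 over wild-type was -0.47. mxa, a dynamin-like GTPase that blocks viruses, read 0.0262 and 0.194 FPKM in the kdrl:cxcr1 libraries, against 0 and 0.0426 FPKM in the wild-type libraries. The Mx genes are close copies of each other, so values of single Mx rows are uncertain.

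The second comparison set clutch 2 against clutch 1. Again 0 of 7 tested members passed limma's test, where 3 genes, or 0.0169%, were called in the whole table. Without adjustment, 1 member and 1630 genes in all (9.2%) had a limma p under 0.05. That member was isg15, with clutch 2 values of 0 and 0 FPKM and clutch 1 values of 3.71 and 5.52 FPKM in kdrl:cxcr1 and wild-type (limma adjusted p = 0.383). isg15 passed the filter on low values through clutch 1 alone, so its difference between clutches follows from being tested at all. More genes were listed at 0 in clutch 2 than in clutch 1, and the part of that in the isg15 values was not tested.

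stat2 also did not overlap between clutches, at 7.48 and 4.61 FPKM in clutch 2 and 7.57 and 11.8 FPKM in clutch 1 (-0.60 log2 units, SE 0.56, limma adjusted p = 0.912). The kdrl:cxcr1 values that set the gap differ by less than 0.1 FPKM. With isg15, that makes 2 of 7 members lower in clutch 2 without overlap, where 20.4% of tested genes were lower. The place of isg15 in that count follows from the filter, so the count is no result about the members. None was higher without overlap, where 15.5% of tested genes were, and 35.9% of tested genes did not overlap in either direction. The other 5 members overlapped between clutches, with log2 fold changes from -0.27 (irf9) to 0.23 (isg20). The median over the 7 members was 0.02, against -0.06 over all tested genes.

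The rest of the interferon pathway was read from a list of 89 rows in 7 roles, of which 52 were tested. None passed limma's test between genotypes or between clutches. At an unadjusted limma p under 0.05 there were 2 of the 52 rows by genotype and 3 by clutch, where 6.8% and 9.2% of all tested genes were. Between genotypes 14 tested rows (26.9%) were higher without overlap and 7 (13.5%) lower, close to the 26.0% and 13.6% of all tested genes. Between clutches 9 of the 52 rows were higher in clutch 2 without overlap and 10 lower, where 15.5% and 20.4% of all tested genes were.

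Of the 6 interferon ligand rows, 4 were listed at 0 throughout, and the others were above 0 in 1 library each. ifnphi1, ifnphi2, ifnphi3 and ifnphi4, the type I interferon genes of zebrafish, were listed at 0 in all 4 libraries. ifng1, the interferon gamma gene, read 0.297 FPKM in the clutch 2 library of wild-type and 0 elsewhere, and ifng1r, an interferon gamma related ligand gene of fish, read 2.42 FPKM in kdrl:cxcr1 clutch 1 and 0 elsewhere. None of the 6 ligand rows was tested, and these rows were named after their values were seen.

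All 8 receptor and kinase rows were tested. Between genotypes 1 of them, jak2a, was higher without overlap and 0 were lower (26.0% and 13.6% of all tested genes). Between clutches 2 were higher in clutch 2 without overlap and 4 lower (15.5% and 20.4% of all tested genes). jak2a, a Janus kinase gene, read 5.02 and 4.19 FPKM in the kdrl:cxcr1 libraries, against 3.57 and 1.67 FPKM in the wild-type libraries, without overlap (log2 fold change 0.68, SE 0.62, limma adjusted p = 0.808). ifngr1l, an interferon gamma receptor gene, read 29.5 and 31 FPKM in the kdrl:cxcr1 libraries, against 22 and 141 FPKM in the wild-type libraries. The wild-type clutch 2 value stood far above the other libraries, and the fold change was -0.87 (SE 0.84, adjusted p = 0.821). For ifngr2, the partner chain, the values were 15 and 16.7 FPKM in the kdrl:cxcr1 libraries, against 18.3 and 6.12 FPKM in the wild-type libraries (0.52, SE 0.59, adjusted p = 0.856), lowest in wild-type clutch 2.

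Among sensors, adaptors and kinases, 9 of 13 rows were tested, 3 of them higher without overlap and 2 lower (26.0% and 13.6% of all tested genes). traf3, an adaptor that links sensors to interferon production, read 31.1 and 33.9 FPKM in the kdrl:cxcr1 libraries, against 12.9 and 16.4 FPKM in the wild-type libraries. All kdrl:cxcr1 values lay above all wild-type values, by a log2 fold change of 1.11 (SE 0.38, limma adjusted p = 0.699). TBK1, a kinase that phosphorylates IRF proteins, read 14.2 and 14.7 FPKM in the kdrl:cxcr1 libraries, against 8.84 and 1.98 FPKM in the wild-type libraries (1.51, SE 0.69, adjusted p = 0.699). ticam1, a toll-like receptor adaptor gene, was lower without overlap, at 5.75 and 2.56 FPKM in the kdrl:cxcr1 libraries, against 6.81 and 11.7 FPKM in the wild-type libraries (-1.02, SE 0.61, adjusted p = 0.721). The other lower row was IKBKE, also a kinase gene. It read 2.02 and 3.36 FPKM in the kdrl:cxcr1 libraries, against 3.94 and 7.44 FPKM in the wild-type libraries.

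Of the other IRF and STAT rows, 11 of 13 were tested. Without overlap, 1 of these was higher and 2, stat6 and stat5b, were lower (26.0% and 13.6% of all tested genes). stat6, which relays interleukin 4 signals, read 35.1 and 26.4 FPKM in the kdrl:cxcr1 libraries, against 37 and 54.8 FPKM in the wild-type libraries (log2 fold change -0.55, SE 0.39, limma adjusted p = 0.744). STAT3, which relays interleukin 6 signals, was the 1 row higher without overlap, at 14.2 and 17.8 FPKM in the kdrl:cxcr1 libraries, against 12.1 and 10 FPKM in the wild-type libraries (0.49, SE 0.42, adjusted p = 0.792). stat5b read 19 and 25.7 FPKM against 29.7 and 27.1 FPKM (-0.35, SE 0.38, adjusted p = 0.849). The highest IRF row of the table, named after its values were seen, was irf2a, at 37.5 and 33.3 FPKM in the kdrl:cxcr1 libraries, against 46.1 and 27.9 FPKM in the wild-type libraries. It lay above irf1b in every library.

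The other antiviral targets held the largest share of tested rows that were higher without overlap among the roles with tested rows. Of 31 rows, 13 were tested, and 8 of these were higher in kdrl:cxcr1 without overlap and 1 lower, where 26.0% and 13.6% of all tested genes were. The 8 were parp12b, ogfr, mxd, parp9, gbp3, ifi30a, trim25 and gbp1. The median log2 fold change of the 13 was 0.53, against 0.16 for all tested genes, and 0.32 to 0.45 above that of all genes with 1 library left out. Rows without overlap cannot turn in sign when 1 library is left out, so that range is no separate support. It lay 0.37 above that of all genes with the filter on low values and 0.13 above it without the filter, over 26 rows. parp12b, an ADP-ribosyltransferase with antiviral activity, read 9.62 and 23.8 FPKM in the kdrl:cxcr1 libraries, against 5.72 and 5.24 FPKM in the wild-type libraries (log2 fold change 1.33, SE 0.58, limma adjusted p = 0.699). gbp3, a guanylate-binding protein gene, read 7.90 and 15.5 FPKM against 4.54 and 5.44 FPKM (1.02, SE 0.55, adjusted p = 0.704). mxd read 3.21 and 7.20 FPKM against 2.81 and 0.652 FPKM (1.23, SE 0.75, adjusted p = 0.724).

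Single rows of this role differed in kind. ogfr is the gene of a receptor for an opioid peptide, and ifi30a that of a thiol reductase of antigen processing. The row that was lower without overlap was eif2ak2, the kinase gene that halts translation on viral RNA, at 5.66 and 4.32 FPKM in the kdrl:cxcr1 libraries, against 5.98 and 9.37 FPKM in the wild-type libraries. In clutch 1, 11 of the 13 rows were above wild-type, with a median log2 ratio of 0.42 (0.14 over all tested genes). In clutch 2, 8 of the 13 were, with a median of 0.39 (0.15 over all tested genes). The 18 rows that were not tested include rsad2, a classical interferon-induced gene, listed at 0 in 3 libraries, and 5 rows listed at 0 in all 4. The macrophage sum given above was also higher in kdrl:cxcr1 in both clutches, as was the sum of the 9 neutrophil rows, at 1308 and 1830 FPKM in kdrl:cxcr1 clutches 1 and 2, against 936 and 1006 FPKM in wild-type clutches 1 and 2. Only 4 of these 9 rows were above wild-type in clutch 1, and 8 were in clutch 2. A single row, npsn, was higher without overlap, as 26.0% of all tested genes were. It read 572 and 583 FPKM in the kdrl:cxcr1 libraries, against 132 and 292 FPKM in the wild-type libraries. Of the 9 erythroid rows, 7 were higher without overlap and 0 lower (26.0% and 13.6% of all tested genes). The sum of the 9 was 6526 and 1473 FPKM in kdrl:cxcr1 clutches 1 and 2, against 3061 and 1623 FPKM in wild-type clutches 1 and 2. Most of each sum came from hbae3, which overlapped between genotypes. It read 6370 and 1348 FPKM in the kdrl:cxcr1 libraries, against 2999 and 1580 FPKM in the wild-type libraries. The part of these markers in the antiviral values was not tested.

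**Figure D4:**
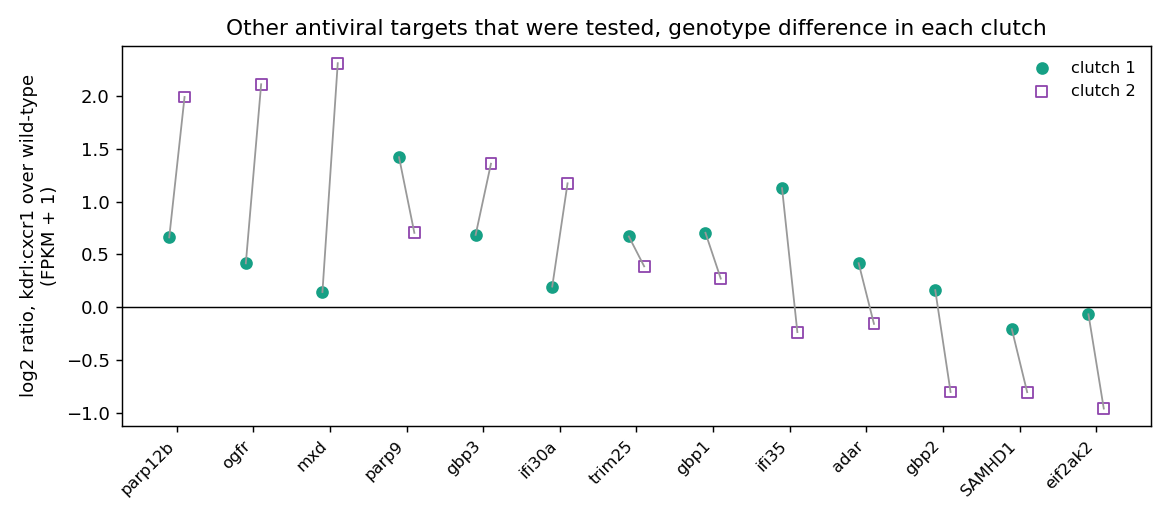
Log2 ratio of kdrl:cxcr1 over wild-type, from FPKM + 1, for the 13 tested rows of the other antiviral targets, with clutch 1 as filled circles and clutch 2 as open squares, each point from 1 library per genotype. The 8 rows on the left, from parp12b to gbp1, lie above 0 in both clutches, and SAMHD1 and eif2ak2 lie below 0 in both.

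Antigen processing genes, which interferon gamma induces, split both ways. PSME2, a proteasome activator subunit, read 1.41 and 0.295 FPKM in the kdrl:cxcr1 libraries, against 5.15 and 5.76 FPKM in the wild-type libraries, lower without overlap (log2 fold change -1.87, SE 0.67, limma adjusted p = 0.699). tapbpl, a gene of peptide loading, read 2.27 and 4.76 FPKM in the kdrl:cxcr1 libraries, against 1.09 and 0 FPKM in the wild-type libraries. b2m, the light chain of class I molecules, read 11.2 and 0 FPKM in the kdrl:cxcr1 libraries, against 12.7 and 5.57 FPKM in the wild-type libraries. Of the 9 tested rows of this role, 1 was higher and 2 lower without overlap, beside 26.0% and 13.6% of all tested genes.

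The 4 rows listed as feedback inhibitors gave 2 tested rows, both phosphatase genes, and both overlapped between genotypes. The rows socs1b and usp18 reached 1 FPKM in too few libraries to be tested. Between clutches, both phosphatase rows were higher in clutch 2 without overlap, as 15.5% of all tested genes were. PTPN6 read 10.6 and 14.4 FPKM in the kdrl:cxcr1 libraries, against 6.32 and 11.7 FPKM in the wild-type libraries (log2 fold change 0.47, SE 0.51, limma adjusted p = 0.846). ptpn2a read 5.97 and 6.90 FPKM in the kdrl:cxcr1 libraries, against 4.93 and 9.81 FPKM in the wild-type libraries (-0.11, SE 0.56, adjusted p = 0.979).

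The mean profile of the 7 tested members, centred on the log2 scale, was 0.33 in kdrl:cxcr1 clutch 1, -0.02 in kdrl:cxcr1 clutch 2, 0.06 in wild-type clutch 1 and -0.37 in wild-type clutch 2. The genes nearest to it over the 4 libraries, by root mean square difference, were tm2d1 (0.0243 log2 units), RIT1 (0.031), MED13 (0.0328), CNKSR2 (0.0368) and CDK14 (0.0378). With 4 libraries such likeness is a description of these values. Members with large differences weigh most in the mean profile. By clutch, isg15 had a log2 fold change of -2.47, and it passed the filter on low values through clutch 1 alone. The others lay from -0.60 (stat2) to 0.23 (isg20). By genotype, irf8 (1.52) and isg20 (1.34) had the largest. The mean profile was lowest in wild-type clutch 2, where irf9 and irf7 were highest, so not all members shared it.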

How the data were processed

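The authors deposited 1 table of FPKM values with a column per library. Cutadapt, TopHat2 2.0.11 and Cufflinks 2.2.1 with build GRCz10 were used, per the submitters' processing notes, and RNA was amplified with the SMARTer chemistry for small inputs, per the labels. For the annotation, filters, strand setting and scaling, the sources used here give nothing. No column was left out. Symbols covered 26120 of 31951 identifiers. List names without a symbol were matched through RefSeq synonyms where 1 row answered.

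Values were taken as log2(FPKM + 1), which understates the change of low genes, and tested with limma 3.58.1 in R 4.3.3, with an intensity trend, two-sided, for genes with at least 1 FPKM in at least 2 libraries. Residual and prior degrees of freedom summed to 5.69 by genotype and 5.09 by clutch. The pipeline was tested on simulated data with a smaller spread than the real genes and larger changes than any member showed. That test does not bear on changes of the members' size. Groups were read from the titles. Clutch numbers pair the libraries, since both genotypes of a number share a clutch, and deviations from the group means correlated at 0.116 within a clutch. Blocking on clutch was therefore an alternative, beside other pseudocounts, filters, scalings, moderation and leaving out each library.

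The members and lists were chosen with earlier results of these data known. Named pathway genes were, for each role, those past the threshold and the 3 with the smallest p by genotype. parp9, ogfr, ifi30a, trim25, gbp1, eif2ak2, SAMHD1, IKBKE, socs1b, usp18, the ligands, irf2a and rsad2 were chosen after their values were seen. The marker genes named singly were chosen in the same way. Some listed genes are not reported here.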

Additional observations from a re-analysis of the deposited data

Results flagged for a closer look

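Genotype differences of opposite direction in the clutches, with 1 library per genotype and clutch and no test of the difference, were seen for 4 members and, among the pathway genes named by the rule, for 3. As the log2 ratio of kdrl:cxcr1 over wild-type in clutch 1 minus that in clutch 2, the value was 2.41 for irf9, 1.16 for irf7, 1.14 for irf1b and -1.17 for stat2. It was 2.56 for ifngr1l, -1.59 for ifngr2 and 0.69 for ptpn2a. Opposite signs were found for 40.0% of all tested genes.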

How the results depend on the processing

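Under every alternative run, 0 of the tested members passed in either comparison, with limma adjusted p from 0.569 to 1.0 by genotype and from 0.155 to 1.0 by clutch. The count of genes by genotype, 2, was 0 with a pseudocount of 0.1, without a filter, without an intensity trend, with the clutch as a replicate block, and with any 1 of the 4 libraries left out (0 to 0). By clutch the count of 3 was 1 with a pseudocount of 0.1, without a filter and without an intensity trend, 0 without either clutch 1 library, 11 without kdrl:cxcr1 clutch 2 and 15 without wild-type clutch 2. Leaving out a library leaves 1 alone in its group, which is assumed to vary like the others. The median of the members minus that of all genes, -0.15 by genotype, ranged from -0.30 to 0.37 with 1 library left out, and by clutch (0.08) from -0.51 to 0.16. Signs turned under another scaling for irf1b by genotype (-0.10 with median-of-ratios scaling, -0.0035 with quantile normalization) and by clutch (-0.15, quantile), and for stat2 by genotype (-0.19 and -0.23, and -0.019 with a pseudocount of 5). irf8 by clutch was -0.35 with a pseudocount of 0.1. With 1 library left out, signs turned for 5 of 7 members by genotype and 5 of 7 by clutch. By genotype the ranges were -0.17 to 0.42 for irf1b, -0.46 to 0.34 for irf7, -1.26 to 0.22 for irf9, -0.58 to 0.60 for stat2 and -1.59 to 1.12 for isg15. By clutch they were -0.33 to 0.36 for irf1b, -0.11 to 0.54 for irf7, -1.36 to 1.54 for irf8, -1.13 to 0.59 for irf9 and -0.65 to 1.11 for isg20. For isg15 by genotype, leaving out 1 library unbalances the clutches, and clutch 2 was listed at 0 in both genotypes. The cause of the other changes was not tested. Depth is unknown, so what counting error allows for the low genes isg15, mxa, irf8 and isg20 cannot be given.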

Other observations

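Several genes that interferon is known to induce read highest in wild-type clutch 2, the library in which irf9 (21.4 FPKM) and irf7 (12.6 FPKM) were also highest. These rows were chosen after their values were seen and none was tested. mxb read 0.167 and 0 FPKM in kdrl:cxcr1 clutches 1 and 2, and 0 and 16.6 FPKM in wild-type clutches 1 and 2. usp18, which removes Isg15 from proteins, read 0.96 and 0 FPKM in the kdrl:cxcr1 libraries, against 0.177 and 5.95 FPKM in the wild-type libraries. ifit12 read 0.607 and 0.271 FPKM in the kdrl:cxcr1 libraries, against 0.678 and 2.93 FPKM in the wild-type libraries, and ifit11 0.079 and 0.223 FPKM against 0.193 and 1.61 FPKM. isg15 was listed at 0 in that same library. Of the 26 other antiviral target rows above 0 in any library, 7 (26.9%) were highest in wild-type clutch 2, as were 22.6% of all genes above 0. More of them, 9 (34.6%), were highest in kdrl:cxcr1 clutch 1, as were 27.7% of all genes above 0. Among these 9 were mxf, mxg and rsad2, which were listed at 0 in wild-type clutch 2. Of the 13 tested rows, 2 (15.4%) were highest in wild-type clutch 2, as were 24.7% of all tested genes.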
